A study of Mus musculus with 9 samples.

Results

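The genes described here are 9 factors of muscle stem cells and of muscle formation: Pax7, Myf5, Myod1, Myog, Myf6, Mymk, Mef2c, Cdh15 and Megf10. They were chosen by symbol from the 55401 genes counted in each library. RNA came from the gastrocnemius of the calf, taken from wild-type mice of the FVB strain that the labels give as 2-3 months old. Muscles had received 1 of 3 injections 7 weeks before collection: AAV-GFP-MBNL1∆, an adeno-associated viral vector for green fluorescent protein and a form of MBNL1, AAV-GFP, the vector for green fluorescent protein alone, or saline. Each group held 3 libraries. MBNL1 is a splicing regulator that CUG repeat RNA traps in myotonic dystrophy, and the series title names a decoy for such repeats. No animal here carried a repeat by the labels. The sources used here do not give the promoter that drives the transgenes, the part of MBNL1 that was kept or the number of animals. Values are in CPM, counts scaled to a common library size, and a gene was called when its adjusted p in edgeR's quasi-likelihood test was under 0.05.

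Skeletal muscle fibres do not divide, and new muscle nuclei come from satellite cells, stem cells that lie between the fibre and its basal lamina. Satellite cells are marked by the paired-box factor Pax7 and mostly carry Myf5. When they are activated they raise Myod1, then Myog as they leave the cell cycle, and they fuse to fibres through the membrane protein myomaker, the product of Mymk. Myf5, Myod1, Myog and Myf6 form the family of myogenic basic helix-loop-helix factors, which pair with E proteins and bind the E box, and MEF2 factors such as Mef2c act with them. Fibre nuclei also hold transcripts of some of these genes, Myf6 above all.

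The stretches just upstream of 3 of these genes are shown because E boxes and MEF2 sites are elements through which the family is known to regulate its own members. They run from 250 to 16 bases before the start given by RefSeq (GRCm38.p6, 235 bases each, 5′ to 3′ on the gene's strand). Capitals mark the E box CANNTG and the core that MEF2 factors bind, TANNNNTA with each N an A or a T. Each reads the same in form on both strands, so both strands were searched, and no marked E box overlapped a marked core.
Myog, chr1:134289754-134289988, plus strand: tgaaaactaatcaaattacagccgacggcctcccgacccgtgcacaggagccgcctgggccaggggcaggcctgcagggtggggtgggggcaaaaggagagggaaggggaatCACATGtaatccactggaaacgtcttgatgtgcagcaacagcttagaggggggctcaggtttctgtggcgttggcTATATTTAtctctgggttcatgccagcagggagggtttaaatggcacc
Myf5, chr10:107486150-107486384, minus strand: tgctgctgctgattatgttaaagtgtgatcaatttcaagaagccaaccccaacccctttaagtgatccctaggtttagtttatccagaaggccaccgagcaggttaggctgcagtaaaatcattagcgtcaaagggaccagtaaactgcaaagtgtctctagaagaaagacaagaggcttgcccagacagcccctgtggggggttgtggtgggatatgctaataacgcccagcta
Mef2c, the first of 3 RefSeq starts, chr13:83503784-83504018, plus strand: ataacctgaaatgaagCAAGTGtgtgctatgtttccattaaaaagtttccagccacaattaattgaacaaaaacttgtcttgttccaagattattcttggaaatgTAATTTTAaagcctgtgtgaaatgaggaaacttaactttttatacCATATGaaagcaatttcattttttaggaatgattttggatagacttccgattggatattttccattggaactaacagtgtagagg

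The Myog window held 1 E box, CACATG at 138 to 133 bases before the start, and 1 MEF2 core, TATATTTA at 63 to 56 bases before it. The Myf5 window held neither. The Mef2c window held 2 E boxes, CAAGTG at 234 to 229 and CATATG at 100 to 95 bases before the start, and 1 MEF2 core, TAATTTTA at 145 to 138. Among 32851 windows of the same length, 64.1% held at least 1 E box, 29.5% held at least 2, and 8.29% held a MEF2 core. A match is a description of letters and not evidence of binding. Bases nearer the start than 16 were not searched, so sites there are not counted. Of the 9 genes, 5 had a window in the RefSeq table, and 3 of these windows are printed here.

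Before the results, 3 features of the libraries need stating. Libraries held 44603618 to 76970849 counts in genes. Xist, the RNA of the inactive X chromosome, stood at 0.0182 to 0.0902 CPM in the AAV-GFP-MBNL1∆ libraries, against 105 to 136 CPM in the other libraries. Ddx3y, on the Y chromosome, stood at 82.7 to 84.6 CPM in the AAV-GFP-MBNL1∆ libraries, against 0.487 to 2.58 CPM in AAV-GFP and 0.409 to 0.693 CPM in saline. The AAV-GFP-MBNL1∆ libraries thus had a male pattern and the others a female one, and in each comparison with AAV-GFP-MBNL1∆ the decoy vector and sex cannot be told apart. AAV-GFP 1 held 75 counts of Eif2s3y, also on the Y chromosome, where the other AAV-GFP libraries and the saline libraries held 0. The source of these counts was not tested. AAV-GFP 2 stood apart from the 8 other libraries. It lay at 132.3 on the first principal component, which held 60.2% of the variance, while the others lay between -59.2 and 61.7. Marker genes of immune cells, 8 for each cell type, were summed in each library. Macrophage markers summed to 176 to 268 CPM in AAV-GFP-MBNL1∆, 209 to 1960 CPM in AAV-GFP and 95.7 to 119 CPM in saline. B and plasma cell markers summed to 31.7 to 97.2 CPM in AAV-GFP-MBNL1∆, 3.65 to 919 CPM in AAV-GFP and 0.333 to 1.13 CPM in saline. T cell markers summed to 5.44 to 13.4 CPM in AAV-GFP-MBNL1∆, 5.25 to 73.5 CPM in AAV-GFP and 0.621 to 1.11 CPM in saline. For all 3 cell types both vector groups lay above saline in every library, and AAV-GFP 2 was the highest library. Mzb1 and Itgam of these lists are listed at 0. Among the tested markers, Cd3e, Lck and Jchain were called higher in AAV-GFP-MBNL1∆ than in saline (adjusted p = 0.0337, 0.0311 and 0.0487). Over all genes 4.76% were called higher in that comparison. The calls of Cd3e and Lck were kept only without AAV-GFP 2 or 3, and that of Jchain only without AAV-GFP 3 (up to 0.167 in the other refits). Without AAV-GFP 3, all 8 T cell and 7 tested B and plasma cell markers were called higher in each vector group than in saline. Over all genes that refit called 2907 higher in AAV-GFP and 1146 higher in AAV-GFP-MBNL1∆. Of 8 fibroblast markers, Pdgfra, Ly6a, Cd34 and Dpp4 were called lower in AAV-GFP-MBNL1∆ than in AAV-GFP, and Dpp4 also lower than in saline. Over all genes 10.3% and 4.6% were called lower in these 2 comparisons. Dpp4 against AAV-GFP was kept in all 9 refits, and the other fibroblast calls in 2 to 4. The summed CPM of the 8 fibroblast markers was 1436 to 1706 in AAV-GFP-MBNL1∆, 1376 to 2539 in AAV-GFP and 1207 to 1398 in saline. The part of these cells in the results below was not tested. The summed CPM of 8 muscle fibre genes was 129560 to 153108 in AAV-GFP-MBNL1∆, 75744 to 121593 in AAV-GFP and 121515 to 151941 in saline. Fibre transcripts were thus abundant in all groups. Their median log2 fold change against saline was -0.35 in AAV-GFP and 0.21 in AAV-GFP-MBNL1∆, with none called. Between AAV-GFP-MBNL1∆ and AAV-GFP it was 0.44. There 1 of the 8, Acta1, was called higher (adjusted p = 0.0319, kept in 2 of 9 refits), beside 10.8% of all genes. The part of fibre content in the results below was not tested.

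Of the 9 genes, 8 passed the expression filter. Against saline, AAV-GFP-MBNL1∆ was higher for Myod1 and Myf6 and lower for none of the 8 at this threshold, where Myog was lower at an unadjusted p of 0.0119. Over all 18514 tested genes 4.76% were called higher and 4.6% lower, 9.37% in all. Against AAV-GFP, AAV-GFP-MBNL1∆ was higher for Pax7, Myod1 and Myf6 and lower for Myog, while over all genes 10.8% were called higher and 10.3% lower, 21.1% in all. AAV-GFP and saline differed by a called change in none of the 8 and in 0% of all genes. At an unadjusted p under 0.05, 22% of all genes differed between AAV-GFP and saline, with Mymk higher and Pax7 lower among the 8. DESeq2 called 1 of the 8, Mymk, higher in AAV-GFP, and limma-voom called none. The median log2 fold change of the 8 was 0.30 for AAV-GFP-MBNL1∆ against saline, 0.31 for AAV-GFP-MBNL1∆ against AAV-GFP and -0.05 for AAV-GFP against saline, beside medians over all genes of 0.02, -0.06 and -0.01. The comparisons share libraries and are not independent of each other.

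**Figure D1:**
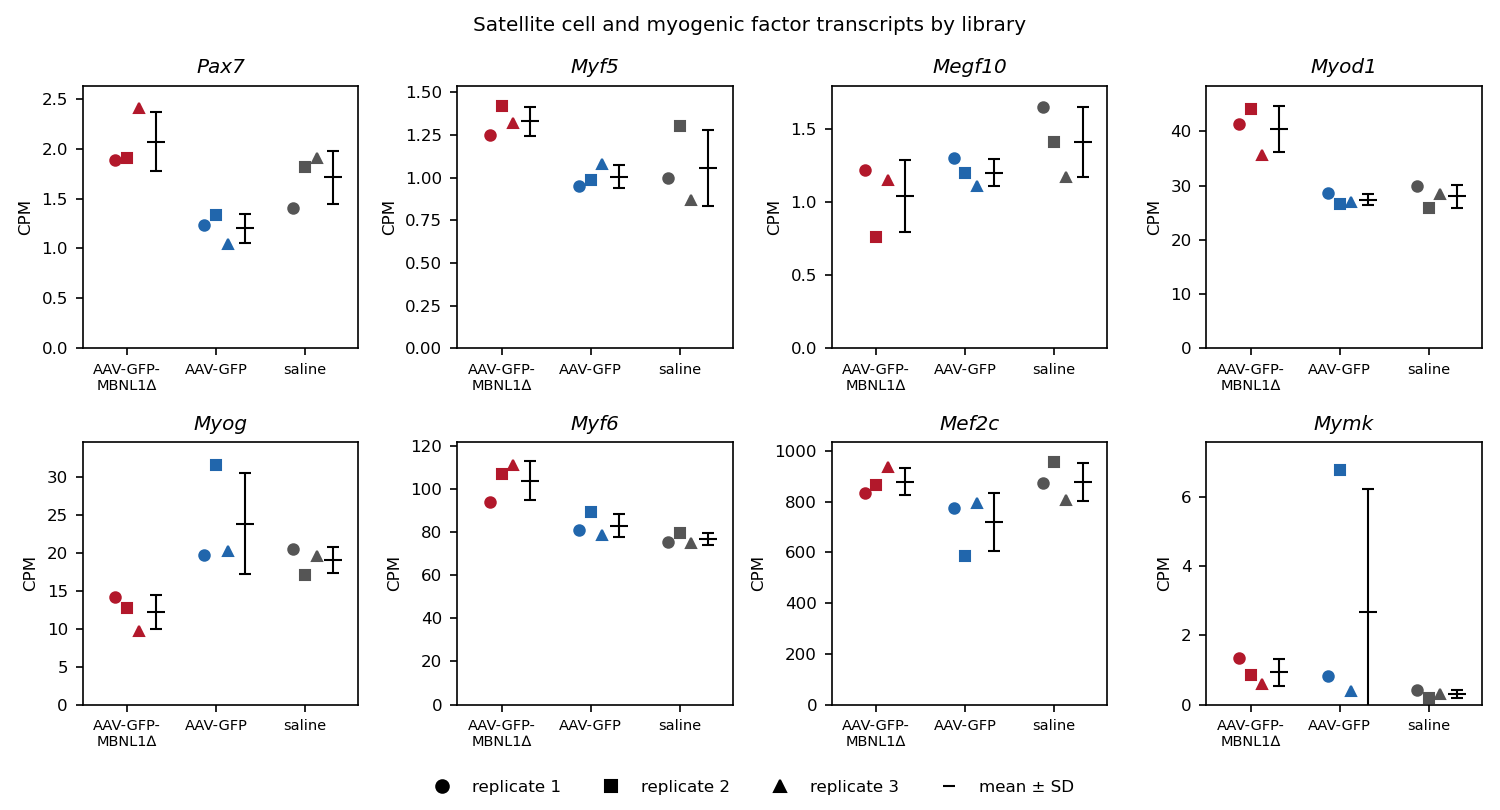
CPM of the 8 tested genes in each library, with 1 panel a gene and a linear axis from 0; symbols mark replicates 1 to 3 and black bars the mean ± SD (n = 3), the lower bar of Mymk in AAV-GFP being cut at 0. Myod1 and Myf6 lay higher and Myog lower in all 3 AAV-GFP-MBNL1∆ libraries than in all 6 others, and Mymk was at 6.76 CPM in AAV-GFP 2 alone.

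Groups whose 3 libraries all lay on one side of the other group's were common over all genes. Between AAV-GFP-MBNL1∆ and saline 42.7% of genes did not overlap (22.7% higher, 20% lower), and of the 8 tested here 3 lay higher (Myod1, Myf6, Mymk) and 1 lower (Myog). Between AAV-GFP-MBNL1∆ and AAV-GFP 38.4% of genes did not overlap (19.2% higher, 19.2% lower), and here 5 lay higher (Pax7, Myf5, Myod1, Myf6, Mef2c) and 1 lower (Myog). Between AAV-GFP and saline 27.1% of genes did not overlap (14.7% higher, 12.4% lower), and here 2 lay lower (Pax7, Mef2c) and none higher.

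Pax7, the factor that defines satellite cells (chromosome 4, 139737062 to 139833528, minus strand of mm10), was a low-abundance transcript. It had 1.89, 1.91 and 2.41 CPM in the AAV-GFP-MBNL1∆ libraries, 1.23, 1.33 and 1.04 CPM in AAV-GFP and 1.41, 1.82 and 1.91 CPM in saline. The AAV-GFP libraries were the 3 lowest of the 9, and AAV-GFP-MBNL1∆ overlapped saline. Pax7 averaged 2.07 ± 0.294 CPM in AAV-GFP-MBNL1∆ and 1.2 ± 0.149 CPM in AAV-GFP (SD, n = 3 each), 0.78 ± 0.19 higher on the log2 scale (SE; adjusted p = 0.0254). Against saline, AAV-GFP-MBNL1∆ differed by 0.27 ± 0.19 (adjusted p = 0.401), with a 95% interval of -0.15 to 0.70. AAV-GFP against saline gave -0.51 ± 0.19, with an adjusted p of 0.181. The call against AAV-GFP rested on few counts, 47 to 161 a library. Leaving out 1 library ended it for AAV-GFP 1 (adjusted p = 0.0615) and for AAV-GFP-MBNL1∆ 1, 2 and 3 (0.0528, 0.0528 and 0.103), with log2 fold changes of 0.66 to 0.85. It was also lost with only the 2 groups compared (0.80, adjusted p = 0.0588).

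In bulk RNA, the number of satellite cells and the amount of Pax7 RNA per cell cannot be told apart. The summed CPM of 5 measured satellite cell markers (Pax7, Myf5, Megf10, Calcr and Chrdl2) was 6.9, 5.89 and 7.7 in AAV-GFP-MBNL1∆, 4.97, 4.5 and 4.23 in AAV-GFP and 5.59, 6.44 and 5.79 in saline. The AAV-GFP libraries had the 3 lowest sums, as they had for Pax7, which is part of the sum. Cdh15, the sixth marker, is left out since it is listed at 0 throughout. Other genes of satellite cells, which are also transcribed in other cell types, had higher means in AAV-GFP than in saline. The log2 fold changes were 1.91 for Vcam1, 1.92 for Sdc3, 1.86 for Cxcr4, 1.84 for Hgf and 0.63 for Sdc4, with adjusted p-values of 0.11 to 0.211, none called. Calcr, the calcitonin receptor of quiescent satellite cells, averaged 0.659 ± 0.251 CPM in AAV-GFP-MBNL1∆, 0.352 ± 0.146 CPM in AAV-GFP and 0.442 ± 0.0338 CPM in saline. Pax3, the paralogue of Pax7, was near its limit of detection with 35, 10 and 20 counts summed over the AAV-GFP-MBNL1∆, AAV-GFP and saline libraries.

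Myf5 (chromosome 10, 107482908 to 107486134, minus strand), the myogenic factor carried by most satellite cells, was not called in any comparison. It had 1.25, 1.42 and 1.32 CPM in AAV-GFP-MBNL1∆, 0.949, 0.985 and 1.08 CPM in AAV-GFP and 0.996, 1.3 and 0.871 CPM in saline. The AAV-GFP-MBNL1∆ libraries lay above all AAV-GFP libraries, and saline replicate 2 reached into their range. The log2 fold changes were 0.33 ± 0.19 against saline (adjusted p = 0.315) and 0.40 ± 0.19 against AAV-GFP (adjusted p = 0.15), with intervals of -0.10 to 0.76 and -0.03 to 0.84. AAV-GFP against saline gave -0.07 ± 0.19 (adjusted p = 0.838). The window upstream of Myf5 printed above is the one with no E box.

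Megf10, a receptor of satellite cells with epidermal growth factor-like repeats (chromosome 18, 57133090 to 57297467, plus strand), was not called in any comparison. It had 1.22, 0.764 and 1.15 CPM in AAV-GFP-MBNL1∆, 1.3, 1.2 and 1.11 CPM in AAV-GFP and 1.65, 1.41 and 1.17 CPM in saline. All pairs of groups overlapped. The log2 fold change was -0.43 ± 0.22 for AAV-GFP-MBNL1∆ against saline (adjusted p = 0.268), with an interval of -0.93 to 0.08. It was -0.20 ± 0.22 for AAV-GFP-MBNL1∆ against AAV-GFP (adjusted p = 0.527) and -0.22 ± 0.22 for AAV-GFP against saline (adjusted p = 0.54).

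Cdh15 encodes M-cadherin, an adhesion protein between satellite cells and fibres (chromosome 8, 122847966 to 122867397, plus strand). It is listed at 0 in all 9 libraries. Its whole span lies inside that of Gm20388, a long predicted gene model on the same strand (chromosome 8, 119910841 to 124345722), though it shares no exon base with another gene. Of 434 protein-coding genes whose span lies wholly inside another gene's on the same strand, 432 (99.5%) were listed at 0 in all libraries. Of 755 that lie inside a gene of the opposite strand only, 169 (22.4%) were at 0, and of 11828 that overlap no gene, 2906 (24.6%). Within Gm20388, all 36 protein-coding genes of the plus strand were at 0, among them Rpl13 and Cox4i1, which every cell uses, against 0 of 35 of the minus strand. The zeros of Cdh15 are not read here as its level, and no limit is given for it. The other 8 genes overlap no annotated gene.

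**Figure D2:**
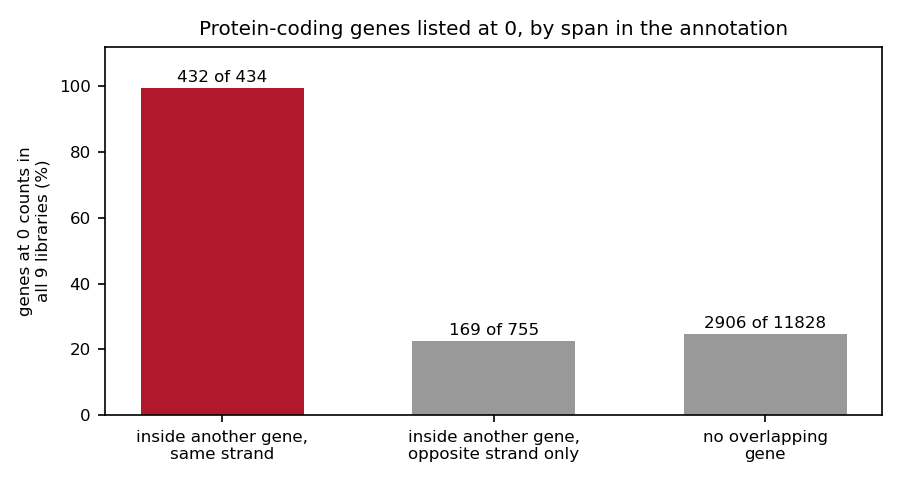
Share of protein-coding genes, in percent, with 0 counts in all 9 libraries, by whether the gene's span lies wholly inside another gene's on the same strand, inside one of the opposite strand only, or overlaps no gene; the numbers of genes stand above the bars. Genes inside another on the same strand, Cdh15 among them, were at 0 in 432 of 434 cases.

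Myod1, the factor that commits activated satellite cells to myogenesis (chromosome 7, 46376474 to 46379099, plus strand), was the member with the lowest adjusted p in both comparisons with AAV-GFP-MBNL1∆. It had 41.4, 44.1 and 35.7 CPM in AAV-GFP-MBNL1∆, 28.6, 26.6 and 27 CPM in AAV-GFP and 29.9, 25.8 and 28.4 CPM in saline. The 3 AAV-GFP-MBNL1∆ libraries were the highest of the 9. Myod1 averaged 40.4 ± 4.27 CPM in AAV-GFP-MBNL1∆ and 28 ± 2.09 CPM in saline, 0.53 ± 0.09 higher on the log2 scale (adjusted p = 0.0126), or 1.44-fold. Against AAV-GFP, with 27.4 ± 1.03 CPM, it was 0.56 ± 0.10 (adjusted p = 0.00779), or 1.47-fold. AAV-GFP and saline gave -0.03 ± 0.09 (adjusted p = 0.848), with an interval of -0.25 to 0.18. The call against AAV-GFP was kept in all 9 refits that left out 1 library. The call against saline was kept in 8 of them and was lost without saline 2 (0.47, adjusted p = 0.0652).

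Myog, or myogenin (chromosome 1, 134289989 to 134292548, plus strand), which starts terminal differentiation, moved the other way. It had 14.1, 12.7 and 9.74 CPM in AAV-GFP-MBNL1∆, 19.7, 31.5 and 20.2 CPM in AAV-GFP and 20.5, 17.1 and 19.5 CPM in saline. The 3 AAV-GFP-MBNL1∆ libraries were the lowest of the 9, and AAV-GFP 2 was the highest. Myog averaged 12.2 ± 2.24 CPM in AAV-GFP-MBNL1∆ and 23.8 ± 6.65 CPM in AAV-GFP, and fell by 0.97 on the log2 scale (SE 0.20, adjusted p = 0.0167). Against saline, with 19 ± 1.78 CPM, the log2 fold change was -0.64 ± 0.20 and missed the threshold (adjusted p = 0.0839). DESeq2 called the difference from saline (adjusted p = 0.0296), and so did edgeR on the 2 groups compared alone (0.0079). Without AAV-GFP 2 the difference from saline was -0.66 (adjusted p = 0.00835) and that from AAV-GFP was -0.70 (0.0111). The call against AAV-GFP was lost without AAV-GFP-MBNL1∆ 2 (-0.99, adjusted p = 0.0532) and without AAV-GFP-MBNL1∆ 3 (-0.82, 0.0703), and with those 2 groups alone (0.0599). AAV-GFP against saline gave 0.32 ± 0.20 (adjusted p = 0.348), and 0.04 without AAV-GFP 2.

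Since Myod1 and Myog are counted in the same library, their ratio needs no scaling between libraries. There were 2.93, 3.47 and 3.67 Myod1 counts per Myog count in AAV-GFP-MBNL1∆, 1.45, 0.847 and 1.34 in AAV-GFP and 1.46, 1.51 and 1.46 in saline. Every AAV-GFP-MBNL1∆ library lay above every other. The mean ratio was 3.36 ± 0.383 in AAV-GFP-MBNL1∆, 1.21 ± 0.321 in AAV-GFP and 1.48 ± 0.031 in saline (SD, n = 3 each). The mean log2 ratio differed by 1.18 from saline and by 1.5 from AAV-GFP, each at p = 0.1 in a two-sided exact permutation test, the smallest p that 3 libraries against 3 allow. The ratio was chosen after the values were seen. It is 1 of 3 ratios with 9 tests in all, and the adjusted p over those tests is 0.18.

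The ratio of Myf6 to Myog showed the same order, with 6.65, 8.43 and 11.4 Myf6 counts per Myog count in AAV-GFP-MBNL1∆, 4.1, 2.83 and 3.91 in AAV-GFP and 3.67, 4.68 and 3.84 in saline. Myod1 per Myf6 count overlapped between all groups, with means of 0.391 ± 0.0625 in AAV-GFP-MBNL1∆, 0.331 ± 0.0289 in AAV-GFP and 0.367 ± 0.0387 in saline.

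**Figure D3:**
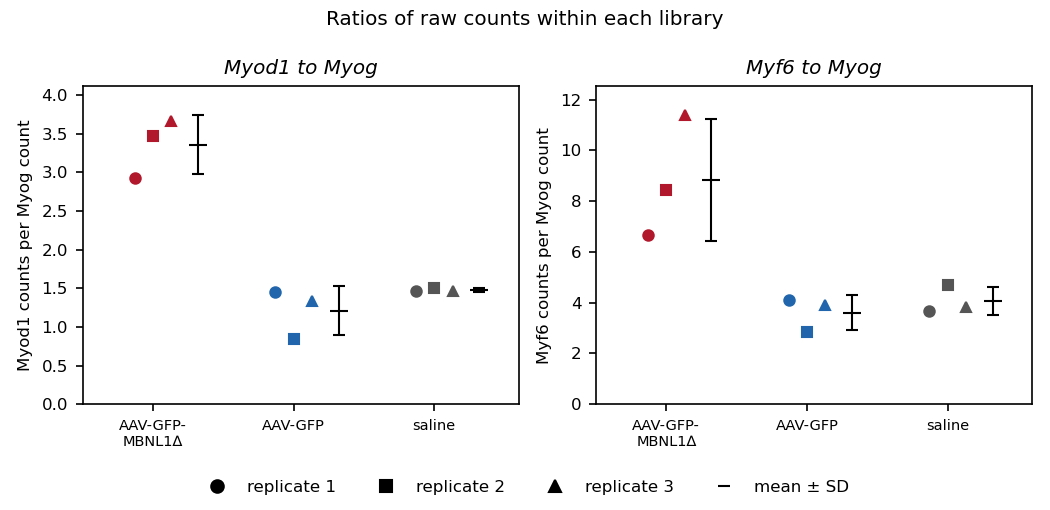
Raw counts of Myod1 (left) and of Myf6 (right) per count of Myog in each library, on linear axes from 0; symbols mark replicates and black bars the mean ± SD (n = 3). For Myod1 the 3 AAV-GFP-MBNL1∆ libraries lie at 2.93 to 3.67 and the other 6 at 0.847 to 1.51.

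Myf6, or MRF4, the myogenic factor of mature fibres (chromosome 10, 107492853 to 107494737, minus strand), lies beside Myf5 on the chromosome. It had 93.9, 107 and 111 CPM in AAV-GFP-MBNL1∆, 80.9, 89.2 and 78.9 CPM in AAV-GFP and 75.4, 79.8 and 74.8 CPM in saline. The AAV-GFP-MBNL1∆ libraries were the 3 highest, and AAV-GFP overlapped saline. Myf6 averaged 104 ± 9.1 CPM in AAV-GFP-MBNL1∆ and 76.6 ± 2.75 CPM in saline, 0.44 ± 0.09 higher on the log2 scale (adjusted p = 0.0213). Against AAV-GFP, with 83 ± 5.45 CPM, it was 0.33 ± 0.09 (adjusted p = 0.0386), and AAV-GFP against saline gave 0.11 ± 0.09 (adjusted p = 0.451).

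These calls lay close to the threshold. Against saline, the call was lost without saline 1, 2 or 3 (adjusted p = 0.0891, 0.0702 and 0.079) and without AAV-GFP-MBNL1∆ 2 or 3 (0.0672 and 0.0904), with log2 fold changes of 0.39 to 0.51 over the 9 refits. Against AAV-GFP, it was lost without saline 1, 2 or 3 (0.0646, 0.0627 and 0.0576), AAV-GFP 1 or 3 (0.091 and 0.0789) or AAV-GFP-MBNL1∆ 2 or 3 (0.0934 and 0.133). It was also lost with no filter (0.0591) and with only the 2 groups compared (0.089).

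Mef2c, which binds DNA together with the myogenic factors (chromosome 13, 83504034 to 83667080, plus strand), was the most abundant of the 8 in CPM. It had 833, 868 and 937 CPM in AAV-GFP-MBNL1∆, 775, 587 and 797 CPM in AAV-GFP and 873, 958 and 806 CPM in saline. AAV-GFP-MBNL1∆ and saline had the same mean of 879 CPM, with SDs of 52.8 and 76.4. Their log2 fold change was 0.00 ± 0.15, with an interval of -0.33 to 0.33. The AAV-GFP libraries were the 3 lowest, AAV-GFP 2 lowest of all. AAV-GFP-MBNL1∆ against AAV-GFP gave 0.29 ± 0.15 (adjusted p = 0.173) and AAV-GFP against saline -0.29 ± 0.15 (adjusted p = 0.271). Neither was called. Counts per gene do not separate the splice forms of Mef2c.

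Mymk (chromosome 2, 27061636 to 27072179, minus strand) had 1 outlying value. It had 1.35, 0.855 and 0.584 CPM in AAV-GFP-MBNL1∆, 0.815, 6.76 and 0.398 CPM in AAV-GFP and 0.419, 0.197 and 0.312 CPM in saline. In counts, AAV-GFP 2 held 542 against 13 to 90 in the 8 other libraries. The AAV-GFP-MBNL1∆ libraries all lay above saline, at 0.931 ± 0.39 CPM against 0.309 ± 0.111 CPM. The log2 fold changes were 1.58 ± 0.99 for AAV-GFP-MBNL1∆ against saline (adjusted p = 0.358), -1.53 ± 0.92 for AAV-GFP-MBNL1∆ against AAV-GFP (adjusted p = 0.246) and 3.11 for AAV-GFP against saline (95% interval 0.81 to 5.41, adjusted p = 0.148). None was called.

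These values turned on AAV-GFP 2. Without it, AAV-GFP-MBNL1∆ against saline was 1.56 ± 0.41 and was called (adjusted p = 0.0236), as it was when these 2 groups were fitted alone (0.0126). AAV-GFP-MBNL1∆ against AAV-GFP turned round to 0.60 ± 0.44 (adjusted p = 0.36), and AAV-GFP against saline dropped to 0.97 ± 0.46 (adjusted p = 0.376). Without AAV-GFP 3, AAV-GFP against saline was called at 3.61 (adjusted p = 0.0163).

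Some other genes of forming fibres were highest in the same library. Mymx, the small membrane protein myomixer that acts with myomaker, had 7, 8 and 6 counts in AAV-GFP-MBNL1∆, 5, 56 and 0 counts in AAV-GFP and 2, 1 and 0 counts in saline, too few to be tested. Myh3, the embryonic myosin heavy chain, was at 36.9 CPM in AAV-GFP 2 and at 2.71 to 9.38 CPM in the others. Myh8, the perinatal one, was at 13.3 CPM there and at 2.67 to 6.33 CPM in the others. Chrng, the fetal subunit of the acetylcholine receptor, was at 4.35 CPM there and at 0.26 to 0.741 CPM in the others. These genes were picked out with the value of AAV-GFP 2 known. Over the whole list of 14 embryonic and regenerating fibre genes, the summed CPM was 1366, 1442 and 1435 in AAV-GFP-MBNL1∆, 1745, 1917 and 2244 in AAV-GFP and 1601, 1489 and 2256 in saline. AAV-GFP 2 was not the highest by that sum, and the AAV-GFP-MBNL1∆ libraries were the 3 lowest. The summed CPM of 8 cell cycle genes was 21 to 26.5 in AAV-GFP-MBNL1∆, 23.3 to 144 in AAV-GFP and 20 to 21.2 in saline, and the immune marker sums of AAV-GFP 2 were the highest too. The part of these cells in the Mymk value was not tested.

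**Figure D4:**
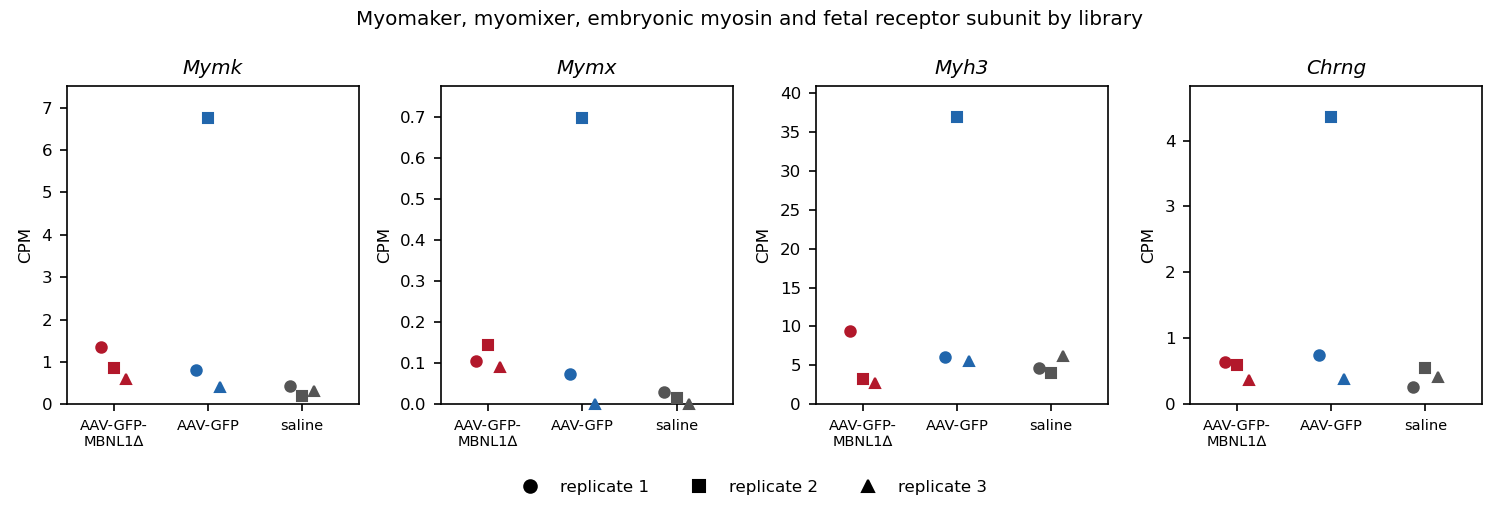
CPM of Mymk, Mymx, Myh3 and Chrng in each library, on linear axes from 0; symbols mark replicates 1 to 3. AAV-GFP 2 is the highest library in every panel, with 6.76 CPM of Mymk and 36.9 CPM of Myh3.

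**Figure D5:**
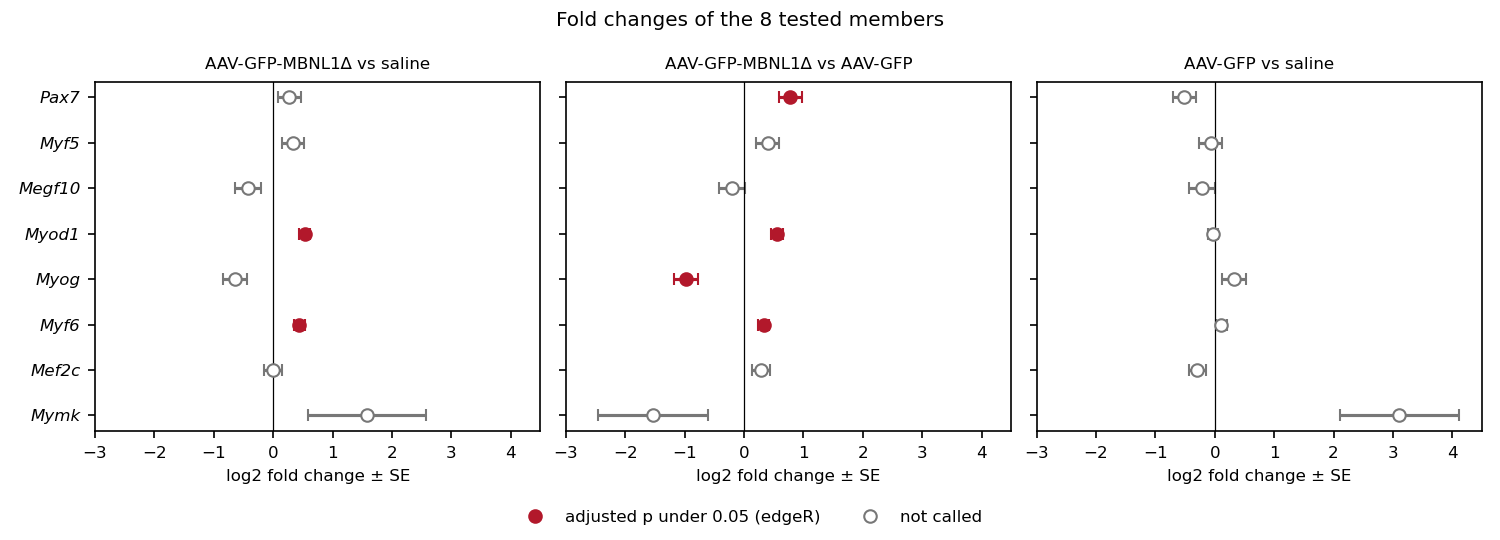
Log2 fold changes ± SE of the 8 tested genes in the 3 comparisons; filled red points have an adjusted p under 0.05 in edgeR. Myod1 and Myf6 are called in both comparisons with AAV-GFP-MBNL1∆, Pax7 and Myog in the one against AAV-GFP, and Mymk has the widest errors.

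Levels of different genes were compared as CPM per kilobase of exon. Cdh15, which shares no exon base with another gene, was at 0, as were 432 of 434 protein-coding genes inside another on the same strand. Whether reads outside exons were counted is not stated in the sources used here and was not tested. If they were, genes whose spans are long beside their exons, such as Mef2c, Pax7 and Megf10, would stand too high in this order. In AAV-GFP-MBNL1∆ the order was Myf6 at 82.4 ± 7.2, Mef2c at 55.9 ± 3.36, Myod1 at 21.7 ± 2.29 and Myog at 8.15 ± 1.5 CPM per kilobase. Each of these 4 lay above the next in all libraries. Below them came Myf5 at 0.638 ± 0.0411, Mymk at 0.616 ± 0.258, Pax7 at 0.354 ± 0.0502 and Megf10 at 0.135 ± 0.0318 CPM per kilobase, where Mymk overlapped both neighbours. In AAV-GFP, Myf6 (65.7 ± 4.32) and Mef2c (45.8 ± 7.35) again led, while Myog (15.9 ± 4.45) and Myod1 (14.7 ± 0.552) overlapped. In saline Myf6 (60.7 ± 2.18) overlapped Mef2c (55.9 ± 4.86), and Myod1 (15.1 ± 1.12) lay above Myog (12.7 ± 1.19) in all libraries. The lowest 3 genes in saline, Pax7 (0.293 ± 0.045), Mymk (0.205 ± 0.0734) and Megf10 (0.182 ± 0.0308), overlapped their neighbours among these 3. In every group and library Myf5, Pax7, Mymk and Megf10 lay below Myog, Myod1, Mef2c and Myf6.

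The genes with the profile most like each of the 8, by root-mean-square difference of centred log2 CPM over the 9 libraries, were as follows. For Myod1 they were Mrps26 (0.089), Eef1g (0.091) and Ola1 (0.092), and for Myf6 Slc35b1 (0.046), Saraf (0.050) and Tinf2 (0.055). For Myog they were Bicd1 (0.106), Fads1 (0.12) and Casp6 (0.137). The nearest to Pax7 was Rsad1 at 0.174, beside its own spread of 0.36. Mymk was nearest to Cnr2 (0.413), Btnl2 (0.429) and Slc37a2 (0.441), beside its own spread of 1.35. Mymk reached the mean of 1 CPM set for this comparison only through its 6.76 CPM in AAV-GFP 2. The nearest to Mef2c was Sgcb (0.041), to Myf5 Clk4 (0.089) and to Megf10 Ep300 (0.108), beside own spreads of 0.20, 0.23 and 0.27.

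Further satellite cell genes were called about as often as all genes. Of 27 tested, 2 were higher and 1 lower in AAV-GFP-MBNL1∆ than in saline, beside 9.37% of all genes, and 4 were higher and 1 lower than in AAV-GFP, beside 21.1%. None differed between AAV-GFP and saline in edgeR, where 5 were higher and 1 lower at an unadjusted p under 0.05 and DESeq2 called 3 higher. Over all genes 22% had such a p, and DESeq2 called 1629 higher and 91 lower. The median log2 fold changes of the 27 were 0.16, 0.05 and -0.15. Gpc1, a heparan sulphate proteoglycan, averaged 473 ± 25.4 CPM in AAV-GFP-MBNL1∆, 208 ± 5.74 CPM in AAV-GFP and 234 ± 7.99 CPM in saline. It rose by 1.01 ± 0.09 against saline (adjusted p = 0.00068) and by 1.19 ± 0.09 against AAV-GFP (adjusted p = 0.000304), and kept both calls in all 9 refits. Lbx1, a homeobox factor of limb muscle precursors, averaged 105 ± 3.88 CPM in AAV-GFP-MBNL1∆, 49.5 ± 13 CPM in AAV-GFP and 60.9 ± 5.42 CPM in saline. Its rise against AAV-GFP (1.09 ± 0.18, adjusted p = 0.00669) was kept in all 9 refits, and that against saline (0.79 ± 0.18, adjusted p = 0.0274) in 3, lost without any saline or AAV-GFP-MBNL1∆ library (up to 0.112). Meox2, another homeobox factor, fell by 0.34 against saline (adjusted p = 0.0407, kept in 2 refits, those without AAV-GFP 2 or 3) and by 0.40 against AAV-GFP (adjusted p = 0.0167, lost without AAV-GFP-MBNL1∆ 3 at 0.0833). Chrdl2, an antagonist of bone morphogenetic proteins, was higher than in AAV-GFP by 1.10 ± 0.29 (adjusted p = 0.0326), lost without saline 2 or 3, AAV-GFP 1 or AAV-GFP-MBNL1∆ 1 or 3 (up to 0.115).

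Of 18 E proteins, MEF2 partners and coactivators, 2 were higher and 0 lower in AAV-GFP-MBNL1∆ than in saline, beside 4.76% higher and 4.6% lower of all genes. Against AAV-GFP, 5 were higher and 0 lower, beside 10.8% and 10.3%. At an unadjusted p under 0.05, 5 were higher and 4 lower against saline, and 6 higher and 4 lower against AAV-GFP. The share of all genes at that threshold is not given here for AAV-GFP-MBNL1∆. Such counts, here and for the lists below, are therefore not read as results about a list. DESeq2 called 4 higher and 2 lower against saline, beside 1600 and 1289 of all genes. Against AAV-GFP it called 6 higher and 2 lower, beside 2666 and 3001 of all genes. The medians of the 18 were -0.08 and 0.02. Carm1, a methyltransferase that acts with Pax7 in mouse satellite cells, averaged 102 ± 7.82 CPM in AAV-GFP-MBNL1∆, 56.9 ± 5.21 CPM in AAV-GFP and 66 ± 1.59 CPM in saline, a rise of 0.62 ± 0.09 against saline (adjusted p = 0.00593) and of 0.84 ± 0.09 against AAV-GFP (adjusted p = 0.00145). Mrtfa, a coactivator of serum response factor, averaged 41.3 ± 1.89, 27 ± 4.25 and 25 ± 1.09 CPM in AAV-GFP-MBNL1∆, AAV-GFP and saline, a rise of 0.72 ± 0.11 (adjusted p = 0.00619) and 0.61 ± 0.11 (adjusted p = 0.00925). Both genes kept both calls in all 9 refits. Against AAV-GFP, Smarcd3, a chromatin remodelling subunit that acts with Myod1, rose by 0.88 ± 0.18 (adjusted p = 0.016, lost without AAV-GFP-MBNL1∆ 3 at 0.0711). Srf rose by 0.66 ± 0.15 (adjusted p = 0.0194, lost without AAV-GFP-MBNL1∆ 1 or 3, up to 0.0845). In this list none was called between AAV-GFP and saline by edgeR, DESeq2 or limma-voom. An unadjusted p under 0.05 was found for 4 of the 18, all lower, beside 22% of all genes, higher or lower.

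Of 19 inhibitors of the myogenic factors, 1 was higher and 0 lower in AAV-GFP-MBNL1∆ than in saline, beside 4.76% and 4.6% of all genes. Against AAV-GFP, 1 was higher and 2 lower, beside 10.8% and 10.3%. The medians of the 19 were -0.12 and -0.27, and against saline 2 were lower at an unadjusted p under 0.05 and none by DESeq2. The gene higher in both was Bhlhe41, a basic helix-loop-helix repressor that also belongs to the circadian clock. It averaged 85.2 ± 8.92 CPM in AAV-GFP-MBNL1∆, 27.2 ± 3.18 CPM in AAV-GFP and 27.6 ± 2.24 CPM in saline. Its log2 fold changes of 1.62 ± 0.12 (adjusted p = 0.000254) and 1.64 ± 0.12 (adjusted p = 0.000231) were kept as calls in all 9 refits. Id2, which binds E proteins, was lower than in AAV-GFP by a log2 fold change of -1.78 ± 0.50 (adjusted p = 0.0408) with 15.6 ± 11.8 CPM in AAV-GFP. Hdac7, a deacetylase that binds MEF2, gave -0.39 ± 0.10 (adjusted p = 0.0331). Each of these was kept in 2 of 9 refits, for Id2 those without AAV-GFP 2 or 3 and for Hdac7 those without AAV-GFP 3 or AAV-GFP-MBNL1∆ 1, and was otherwise lost at up to 0.138 and 0.124. The value for Id2 was smallest, -0.97, without AAV-GFP 2.

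Of 19 fusion and early differentiation genes other than Mymk, 2 were higher and 1 lower in AAV-GFP-MBNL1∆ than in saline, beside 4.76% and 4.6% of all genes. Against AAV-GFP, 3 were higher and 3 lower, beside 10.8% and 10.3%. The medians of the 19 were -0.07 and -0.13. Stab2, a receptor for phosphatidylserine, averaged 1.9 ± 0.281 CPM in AAV-GFP-MBNL1∆, 0.398 ± 0.173 CPM in AAV-GFP and 0.831 ± 0.115 CPM in saline. It rose by 2.28 ± 0.32 against AAV-GFP (adjusted p = 0.00415, kept in all 9 refits) and by 1.20 ± 0.30 against saline (adjusted p = 0.0429, kept only without AAV-GFP 2 or 3, up to 0.146 otherwise). The GTPase Rac1 rose by 0.57 ± 0.09 against AAV-GFP (adjusted p = 0.0067) and by 0.56 ± 0.09 against saline (adjusted p = 0.00911, 0.0509 without AAV-GFP-MBNL1∆ 3). Dock1, which activates Rac1, fell by 0.46 against AAV-GFP (adjusted p = 0.0099, kept in all 9 refits) and by 0.38 against saline (adjusted p = 0.0285, lost without any saline or AAV-GFP-MBNL1∆ library, up to 0.0982). The tetraspanin Cd9 fell by 0.53 against AAV-GFP (adjusted p = 0.014, lost without AAV-GFP-MBNL1∆ 2 or 3, up to 0.0709).

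Notch signalling, which keeps satellite cells quiescent, gave no call among 17 genes against saline, where 3 were lower at an unadjusted p under 0.05 and DESeq2 called 2 lower. Over all genes 4.76% were called higher and 4.6% lower against saline. Against AAV-GFP, 1 of the 17 was higher and 2 were lower, beside 10.8% and 10.3% of all genes. The medians of the 17 were -0.17 and -0.11. Dll1, a ligand, was higher by 0.59 ± 0.15 (adjusted p = 0.0282), while the receptor Notch2 gave -0.78 ± 0.23 (adjusted p = 0.0473) and the nuclear effector Rbpj -1.18 ± 0.29 (adjusted p = 0.028). Rbpj averaged 31.9 ± 4.14 CPM in AAV-GFP-MBNL1∆, 72.4 ± 33 CPM in AAV-GFP and 30 ± 2.39 CPM in saline. These calls were kept in 5, 2 and 3 of 9 refits for Dll1, Notch2 and Rbpj. They were lost at up to 0.0745 for Dll1 (without saline 2, AAV-GFP 1 or AAV-GFP-MBNL1∆ 1 or 3), up to 0.14 for Notch2 (kept only without AAV-GFP 2 or 3) and up to 0.0987 for Rbpj (kept only without saline 3 or AAV-GFP 2 or 3). Without AAV-GFP 2 the values were -0.43 for Notch2 and -0.77 for Rbpj.

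Of 13 embryonic and regenerating fibre genes, none was called between AAV-GFP-MBNL1∆ and saline, where 1 was lower at an unadjusted p under 0.05 and by DESeq2, and 1, Vim, was lower than in AAV-GFP (-1.41 ± 0.35, adjusted p = 0.0281), lost without saline 2 or any AAV-GFP-MBNL1∆ library (up to 0.107), with -0.82 without AAV-GFP 2. Over all genes 9.37% were called against saline and 21.1% against AAV-GFP. The medians of the 13 embryonic genes were -0.04 and -0.70. Their median log2 fold change for AAV-GFP against saline was 0.76, with 10 of 13 above 0, none called in edgeR, 3 higher at an unadjusted p under 0.05 and 2 called higher by DESeq2. Of 14 denervation genes, none was called against saline, where 2 were higher and 1 lower at an unadjusted p under 0.05 and DESeq2 called 2 higher. Against AAV-GFP, Musk, the receptor kinase of the neuromuscular junction, was higher by 0.74 ± 0.16 (adjusted p = 0.0182, lost without AAV-GFP-MBNL1∆ 1 or 3, up to 0.0795). Gadd45a gave -1.07 ± 0.28 (adjusted p = 0.0351) and was kept only without AAV-GFP 2 or 3, up to 0.12 otherwise, with -0.69 without AAV-GFP 2. Of the 14 denervation genes, 1 was thus called higher and 1 lower than in AAV-GFP, beside 10.8% and 10.3% of all genes. The medians of the denervation genes were 0.06 and -0.08.

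No list held a call between AAV-GFP and saline with all 9 libraries. At an unadjusted p under 0.05, 2 of 17 Notch genes were higher and 2 lower, and 3 of 19 inhibitors higher and 2 lower. Of 19 fusion genes 3 were higher and 4 lower, and of 14 denervation genes 3 were higher and 1 lower. Over all genes 22% differed at that threshold. DESeq2 called 1 Notch gene, 1 inhibitor, 2 fusion genes and 1 denervation gene higher, and 1 fusion gene lower. Over all genes it called 1629 higher and 91 lower. Without AAV-GFP 3, edgeR called 5 of the 27 further satellite cell genes, 3 of the 17 Notch genes and 2 of the 19 inhibitors higher in AAV-GFP. It also called 3 of the 19 fusion genes, 3 of the 13 embryonic genes and 3 of the 14 denervation genes higher. Lower were 2 Notch genes and 2 fusion genes. Over all genes that refit called 2907 higher and 355 lower. Without AAV-GFP 2 edgeR called none of these lists' genes, and 5 higher and 0 lower over all genes. For AAV-GFP-MBNL1∆ against saline without AAV-GFP 2, 3 of the further satellite cell genes were called higher and 3 lower, 0 Notch genes higher and 4 lower, and 5 partners higher and 3 lower. In the same refit 1 inhibitor was higher and 2 lower, 2 fusion genes higher and 3 lower, 0 embryonic genes higher and 1 lower, and 2 denervation genes higher and 1 lower. Over all genes it called 1933 higher and 2114 lower. The list counts thus depended on which AAV-GFP library was left out, as the counts over all genes and the Mymk values did.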

How the data were processed

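The authors deposited read counts by gene, in 9 tables of 1 library each. Per the submitters' processing notes, the tools were cutadapt 2.10, STAR 2.7.5a, HTSeq 0.12.4 and DESeq2 1.30.0, with mm10. Which annotation and strand option the counting used is not stated in the sources used here. The 5 rows that name no gene held 16.8% to 18.3% of reads and were left out. Names, coordinates and exon lengths came from GENCODE M21 by gene identifier (55141 matched, 260 not). Of 30602 genes with a count, 18514 passed edgeR's filter.

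The 9 libraries were fitted together in edgeR 4.0.16 (R 4.3.3, TMM scaling, robust quasi-likelihood F test, 6 residual degrees of freedom), with Benjamini-Hochberg adjustment over all tested genes and a threshold of 0.05. Adjusted p-values are edgeR's where no other tool stands beside them. SEs were taken as the fold change divided by the square root of F. Alternatives were other scalings, filters, DESeq2 1.42.0, limma-voom 3.58.1, a replicate block, 2 groups alone and leaving out each library. Since no label names the animals, p-values reflect the spread between libraries, which may be technical. The 9 genes and the gene lists were chosen with earlier results of these data known. From most lists up to 4 called genes with the smallest p are named. Called genes of the cell cycle list and of lists for smooth muscle and Schwann cells are not named. Of the sex-linked list, Xist, Ddx3y and Eif2s3y are named as a check of the libraries. Calcr, Pax3, Vcam1, Sdc3, Cxcr4, Hgf, Sdc4, Mymx, Myh3, Myh8 and Chrng were chosen after their values were seen. Some results are not reported here.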

Additional observations from a re-analysis of the deposited data

How the results depend on the processing

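Over 19 alternatives, the log2 fold changes of the 8 genes kept their direction and their side of the threshold in 411 values, passed it in 7, lost it in 24 and changed sign in 11. Myod1 against AAV-GFP was called in all 19. Mymk had no value under the filter of 1 CPM in 3 libraries. The sign changed for Mymk, AAV-GFP-MBNL1∆ against AAV-GFP, without AAV-GFP 2 (0.60, lowest -2.04 without AAV-GFP 3), for Myod1, AAV-GFP against saline, without saline 1 (0.01, lowest -0.09), for Myf5, AAV-GFP against saline, without saline 2 (0.10, lowest -0.20), and for Mef2c, AAV-GFP-MBNL1∆ against saline, whose value is 0.00: DESeq2's size factors, no filter and DESeq2 each gave 0.01, removal of the mitochondrial and 10 most abundant genes 0.00, and leaving out saline 2 0.07, AAV-GFP 1 0.00, AAV-GFP-MBNL1∆ 1 0.04 and AAV-GFP-MBNL1∆ 2 0.01, against a lowest -0.06 without saline 3.

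For AAV-GFP-MBNL1∆ against saline, members called higher ranged from 0 to 3 and lower from 0 to 1 when 1 library was left out, and all genes from 286 to 1933 higher and from 214 to 2114 lower. DESeq2 and the 2 groups alone each called 1 member lower, and 1600 and 2303 of all genes higher and 1289 and 2281 lower. For AAV-GFP-MBNL1∆ against AAV-GFP the ranges were 1 to 3 members higher, 0 to 1 lower, 556 to 2380 genes higher and 270 to 4269 lower. The 2 groups alone gave 1 member higher, 0 lower, 788 genes higher and 371 lower, and genes called lower came to 1133 with no filter, 3001 with DESeq2 and 1260 with limma-voom. For AAV-GFP against saline the ranges were 0 to 1 member higher, 0 lower, 0 to 2907 genes higher and 0 to 355 lower, the highest without AAV-GFP 3, and DESeq2 called 1 member and 1629 genes higher and 91 lower. The cause of these differences was not tested.

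The numbers were not taken to pair the libraries, since in each comparison at least 1 correlation between same-numbered libraries was under 0.1: the correlations for replicates 1, 2 and 3 were -0.01, -0.04 and -0.03 for AAV-GFP-MBNL1∆ with saline, 0.07, 0.17 and 0.45 for AAV-GFP-MBNL1∆ with AAV-GFP and 0.07, -0.08 and -0.07 for AAV-GFP with saline, and 6 of 18 library-group pairs correlated best with their own number. With the replicate block, 99 genes were called higher and 0 lower in AAV-GFP than in saline, 747 higher and 665 lower in AAV-GFP-MBNL1∆ than in saline (2 members higher, 0 lower), and 1535 higher and 1302 lower in AAV-GFP-MBNL1∆ than in AAV-GFP (2 members higher, 1 lower). Under the block Myf6 against AAV-GFP had an adjusted p of 0.0522. No scaling moved the median of all genes by as much as 0.1.

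Depth limits Pax7, Myf5, Megf10 and Mymk, which rest on 13 to 161 counts in all libraries but AAV-GFP 2, where Mymk had 542.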
